A study of Mus musculus with 20 samples.

Results

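The genes described here move iron into a red cell precursor, store it, deliver it to the mitochondrion, or sense it. They are 9 genes: Tfrc, Steap3, Slc11a2, Slc25a37, Abcb10, Fth1, Ftl1, Aco1 and Ireb2. Their members are the introns of the 1 transcript per gene that the authors tabulated, 84 of the 68794 introns in the series' first intron table. Of these 84 introns, 33 also appear in a second table on splicing intermediates. Coverage was uneven: 22 introns had at least 10 reads in uninduced cells, 34 in induced cells and 19 in both, and those 19 lie in only 4 genes, Tfrc, Fth1, Ftl1 and Slc11a2.

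A developing red cell takes up iron bound to transferrin. The transferrin receptor (Tfrc) carries it into an endosome, the reductase Steap3 converts it to its ferrous form, and the divalent metal transporter Slc11a2 moves it to the cytosol. Mitoferrin 1 (Slc25a37) brings it into the mitochondrion, where it is built into heme; Abcb10 is a transporter of the inner mitochondrial membrane known to stabilise mitoferrin 1. Ferritin, a shell of heavy (Fth1) and light (Ftl1) subunits, stores what is not used. The iron regulatory proteins (Aco1, which is also a cytosolic aconitase, and Ireb2) bind iron-responsive elements in the messages of ferritin and of the receptor and set their translation or stability.

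The cells are murine erythroleukemia (MEL) cells, wild type in genotype per the labels, a leukemic erythroid precursor line that starts to make hemoglobin when treated with dimethyl sulfoxide (DMSO). Uninduced cells were untreated, and induced cells were kept in 2% DMSO for 5 days. Each group comprises 4 long-read (PacBio) samples, from 2 biological replicates run on 2 instruments, and their RNA was taken from chromatin and depleted of polyadenylated and ribosomal RNA. The deposited tables hold 1 pooled line per intron and group, so there is no spread between replicates. The lines name the condition only: that they hold these long-read samples was taken from what the tables measure, and which runs were added together is not given in the sources used here. A p-value here describes how 2 pools differ in their reads and says nothing of the variation between cultures.

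The uninduced pool held 416379 and the induced pool 279371 splicing observations, where a long read counts once at each intron it covers. The erythroid identity of the cells was visible in the same table: the best covered intron of Hba-a1 (alpha-globin) had 101 uninduced and 1099 induced reads, that of Alas2 had 7 and 317, and that of Slc4a1 had 0 and 85. Gata1, an erythroid transcription factor, had 22 and 36. Ptprc, a marker of white blood cells, had 13 uninduced reads and 0 induced reads. Cd3e and Itgam were not analysed here.

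The splicing measure is the co-transcriptional splicing efficiency (coSE), the number of reads spliced at an intron divided by spliced plus unspliced reads. NIC is the fraction of splicing intermediates (understood as RNA on which the first cut of splicing was made while its exons were still separate) among intermediates plus spliced reads. Splice sites of the introns on which the results turn are printed first, 5′ to 3′, from the second deposited table. The 5' site holds the last 3 exon bases and the first 6 intron bases, and capitals mark bases that differ from the commonest base at that position over 6537 introns, which together read aaggtaagt. The sites are those of Tfrc introns 5 and 6, the least spliced of that gene, of the Tfrc intron richest in intermediates (11) and a well spliced one (2), of both tabulated Fth1 introns, of 2 Ftl1 introns, and of the least spliced (6) and a fully spliced (8) Abcb10 intron among those with at least 10 reads.
Tfrc intron 5, 5' site: CaggtaTgt
Tfrc intron 6, 5' site: TCTgtaagt
Tfrc intron 11, 5' site: aaggtaCAA
Tfrc intron 2, 5' site: TTggtaagG
Fth1 intron 2, 5' site: aaggtaagt
Fth1 intron 3, 5' site: CaCgtGagt
Ftl1 intron 2, 5' site: CaggtaagA
Ftl1 intron 3, 5' site: CaTgtaagt
Abcb10 intron 6, 5' site: GaggtaTAt
Abcb10 intron 8, 5' site: CTggtaGgt

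The 3' site holds the last 20 intron bases and 3 exon bases. Here capitals mark the pyrimidines among the 18 bases before the closing ag of the intron.
Tfrc intron 5, 3' site: CTTTaTTTTTTaTCTTTTagcat
Tfrc intron 6, 3' site: CCTaaTgTCTTTaaTTTTagggt
Tfrc intron 11, 3' site: agCaaTgTCTTgTCTTCCagatg
Tfrc intron 2, 3' site: CTCTTTTTTaaaaaTaTCagttt
Fth1 intron 2, 3' site: TgaCCCgaTgTTTCaTTCagaaa
Fth1 intron 3, 3' site: TCCCaTgTTCTCTTTCCTagtta
Ftl1 intron 2, 3' site: CTTgaTaTTCTTgTgTgCagaag
Ftl1 intron 3, 3' site: gTCTCTTCCTTCCTTTaCagctc
Abcb10 intron 6, 3' site: TagaCTCTTTTTgTCCTCaggac
Abcb10 intron 8, 3' site: TgCCTTCTCCCTCCCaTCaggaa

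Transferrin receptor reads made up a far larger share of the induced than of the uninduced pool. Its best covered intron over both pools, intron 2 (genome build GRCm38, chromosome 16, 32613227 to 32614565, between coding exons), had 11 uninduced and 192 induced reads, or 26.4 and 687 reads per 1000000 splicing observations of the pool (RPM). The ratio of these shares was 26.0, with an exact conditional binomial 95% interval from 14.2 to 53.0 that covers counting error only. With the median over the 18 introns in place of 1 intron, the ratio was 11.7, which lies below that interval. Intron 2 had the highest ratio of the 18 introns. The lowest was 7.25 at intron 12 (interval 4.12 to 13.6). In a bulk pool, more reads per cell and more cells that make a transcript cannot be told apart.

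Abcb10, the partner of mitoferrin 1, was also scarcer in the uninduced pool. Its intron 7 (chromosome 8, 123962206 to 123962992) had 4 uninduced and 27 induced reads, or 9.61 and 96.6 RPM, a ratio of 10.1 (interval 3.51 to 39.6). For the storage genes the interval of the ratio included 1. Ftl1 intron 1 (chromosome 7, 45459231 to 45459529) had 109 and 75 reads, 262 and 268 RPM, a ratio of 1.03 (interval 0.754 to 1.39). Fth1 intron 3 (chromosome 19, 9984686 to 9984780) had 29 and 18 reads, 69.6 and 64.4 RPM, a ratio of 0.925 (interval 0.484 to 1.72). Slc11a2, the endosomal iron exporter, was lower in the induced pool at its best covered intron, intron 3 (chromosome 15, 100409326 to 100410082), with 55 and 19 reads, 132 and 68.0 RPM, a ratio of 0.515 (interval 0.289 to 0.881). Its other tabulated intron, intron 2, had 48 and 24 reads, 115 and 85.9 RPM. The ratio there was 0.745, with an interval of 0.437 to 1.24 that included 1. The 2 intervals overlap, so the introns are not shown to differ, and only that of intron 3 lies below 1.

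These 5 genes were the members with at least 20 reads over both pools at their best covered intron, a minimum that 1632 genes met. A ratio over 2 was found for Tfrc and Abcb10, 2 of 5, against 16.1% of all 1632 genes, and a ratio under 1/2 for 0 of 5, against 24.5%. Tfrc and Abcb10 reached the minimum through their induced reads, 192 and 27 against 11 and 4, so their entry depended on the increase being counted and nothing is read from the count. The median ratio over all these genes was 0.917. Globin introns took 0.0989% of uninduced and 1.51% of induced observations, and leaving them out of the totals gave a ratio of 26.4 for Tfrc. The plot of reads along each gene shows the induced pool above the uninduced pool at all 18 Tfrc introns and all 12 Abcb10 introns, of which intron 1 of Abcb10 had 1 read in each pool.

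**Figure D1:**
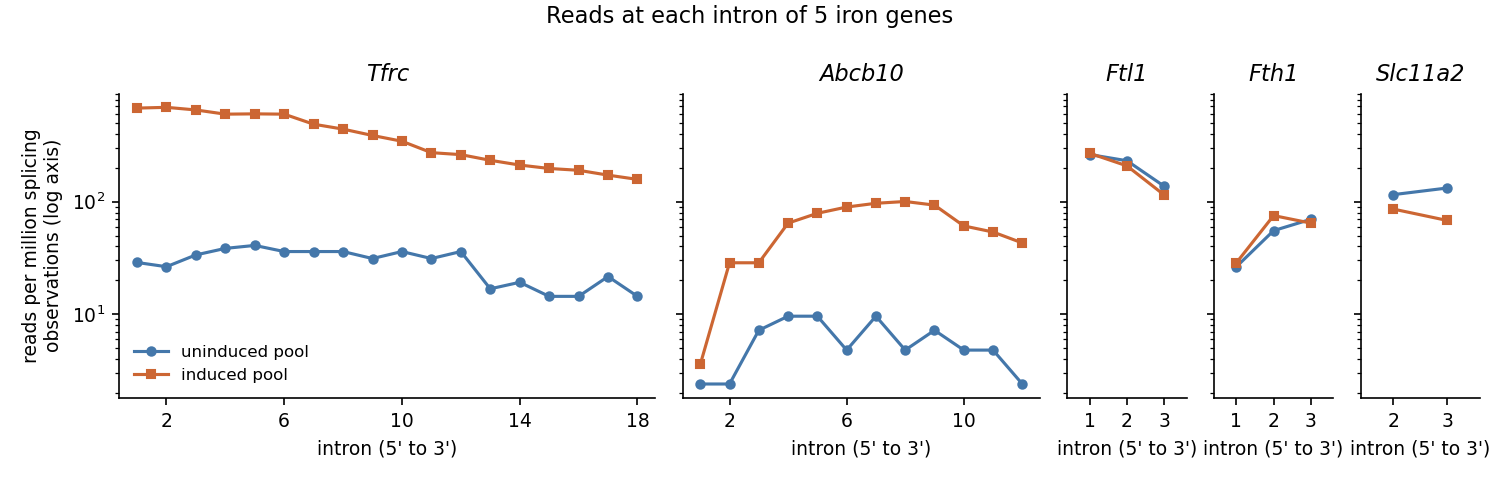
Reads at each intron, numbered 5' to 3' on the horizontal axis, in reads per 1000000 splicing observations of the pool (log vertical axis), for Tfrc, Abcb10, Ftl1, Fth1 and Slc11a2; blue circles are the uninduced and orange squares the induced pool. The induced points of Tfrc lie above the uninduced ones at all 18 introns, while those of Ftl1 and Fth1 lie close together.

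Tfrc coverage also changed along the gene. In the induced pool its introns 1 to 4 had 167 to 192 reads and introns 15 to 18 had 44 to 55. In the uninduced pool the same introns had 11 to 16 and 6 to 9. The ratio of shares, from the means of these groups of 4 introns, was 20.5 at the 5' end and 11 at the 3' end. Across the 18 introns, Spearman's rho of induced reads with intron number was -0.994, a description over introns that share reads.

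Most Tfrc introns were spliced in nearly all reads, and introns 5 and 6 had the lowest coSE of the gene in both pools. Intron 5 (chromosome 16, 32616899 to 32617096, 198 nt) interrupts the coding sequence. Among its 17 uninduced reads 7 were spliced, a coSE of 0.412 with a Wilson 95% interval from 0.216 to 0.640. Among its 168 induced reads 136 were spliced, and the coSE was 0.810 (interval 0.743 to 0.862). Its coSE was higher in the induced pool by 0.398 (Fisher's exact test, p 0.000782, adjusted p 0.0485). Of the 19 member introns tested, it was the only 1 past the threshold of 0.05, against 1.61% of all 4403 introns tested. By direction, 1 of 19 was higher in the induced pool, against 0.363% of all, and 0 of 19 were lower, against 1.25%. An unadjusted p under 0.05 was found at 3 of 19, against 7.97%. The call rests on 17 uninduced reads: with other coverage minimums at which the intron could be tested, another test or thinned reads, the adjusted p ranged from 0.0433 to 0.584.

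Intron 6, next to it (32617200 to 32618217, 1018 nt), had 9 of 15 uninduced reads spliced, for a coSE of 0.60 (interval 0.357 to 0.802). In the induced pool 126 of 167 were spliced, for a coSE of 0.754 (interval 0.684 to 0.814). That difference did not pass (p 0.220, adjusted p 1). Among all introns with at least 10 reads, 5.55% of uninduced and 24.8% of induced ones had a lower coSE than intron 5, and 10.8% and 19.6% a lower one than intron 6. An exon of 103 nt lies between introns 5 and 6. In the induced pool 13 of the other 17 introns had intervals wholly above that of intron 5, and 15 of 17 wholly above that of intron 6. In the uninduced pool, where 12 introns had at least 10 reads, 7 of the other 11 lay wholly above intron 5 and 0 of 11 above intron 6.

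Introns 5 and 6 together held 16 of the 29 unspliced observations of Tfrc in the uninduced pool, or 55.2%, and 73 of 127 in the induced pool, or 57.5%. The other 16 introns together had a coSE of 0.928 before and 0.968 after induction. The annotation has a transcript of the retained-intron type in which 1 exon covers intron 5: of 3 annotated transcripts that span this intron, 2 include it as an intron. Both transcripts that span intron 6 include it.

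Intron 12 of Tfrc (32623143 to 32623371, 229 nt) had the next lowest uninduced coSE, 10 of 15 reads or 0.667 (interval 0.417 to 0.848). In the induced pool it was 66 of 73 reads or 0.904 (interval 0.815 to 0.953), which did not pass (p 0.0285, adjusted p 0.482). Intron 1, in the 5' UTR (32609037 to 32613167, the longest at 4131 nt), was spliced in 11 of 12 and 183 of 189 reads, coSE 0.917 and 0.968. Intron 2 was spliced in 11 of 11 and 191 of 192 reads, coSE 1 and 0.995. Introns 15, 16 and 18 had no unspliced read among 55, 53 and 44 induced reads, with lower Wilson bounds of 0.935, 0.932 and 0.920.

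**Figure D2:**
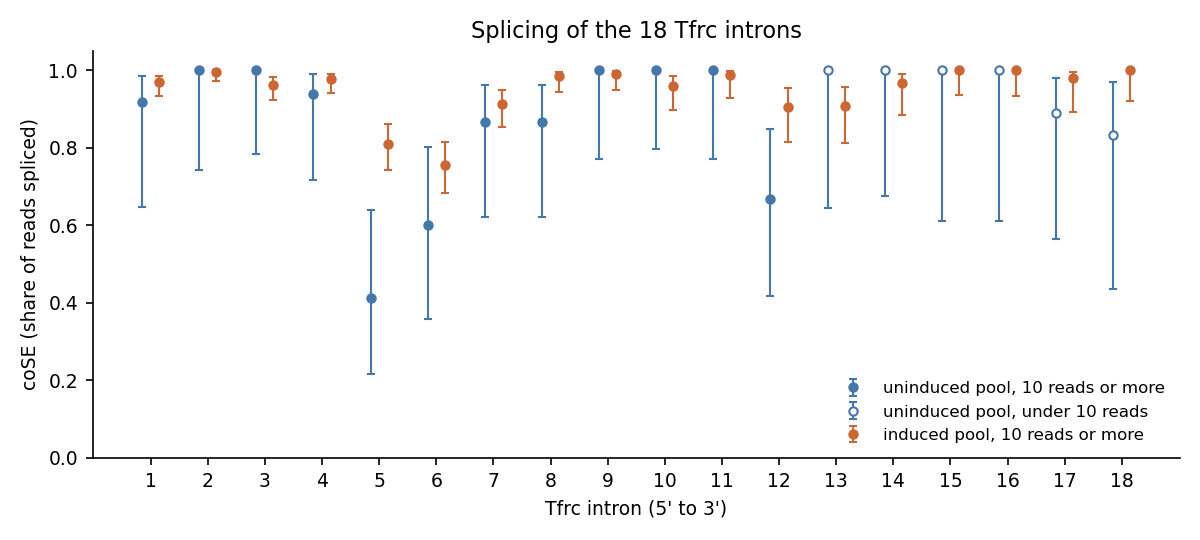
coSE, the share of reads spliced, at the 18 Tfrc introns from 5' to 3'; points are pooled values, bars are 95% Wilson intervals, and open points rest on under 10 reads. Introns 5 and 6 have the lowest induced values, 0.810 and 0.754, and intron 5 the lowest uninduced value, 0.412.

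The scores the authors list for the splice sites do not set Tfrc introns 5 and 6 apart at the low end. Intron 5 had a 5' score of 9.80 and a 3' score of 9.92, higher than 71.5% and 70.1% of the 6537 scored introns. Intron 6 had 7.96 and 9.14, above 33.2% and 57.4%. The well spliced intron 2 had the lowest 3' score of the gene, 3.65, above only 3.90% of introns; its tract holds a run of adenines, as printed above. Intron 5 was AT-rich, with a GC content of 29.3%, lower than in all but 1.77% of introns, and 17 of the 18 Tfrc introns were below the median GC content of 43.9%. Across the 18 introns, Spearman's rho of induced coSE was 0.572 with GC content, 0.398 with length, -0.315 with the 3' score and 0.00310 with the 5' score. These are descriptions over introns that share reads.

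Splicing intermediates of Tfrc gathered at another intron. Intron 11 (32621298 to 32623056, 1759 nt) had 13 intermediates among 80 induced reads, a NIC of 16.3% (Wilson interval 9.75% to 25.8%), higher than at 92.7% of the 3008 induced introns in the second table. The intervals of 11 of the other 17 Tfrc introns lay wholly below it. Its 5' site has the lowest score of the gene, 6.82, with 3 bases at its 3' end that differ from the commonest. The same intron was spliced in 75 of 76 induced reads in the first table, a coSE of 0.987.

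At intron 5 the NIC was 5.15% (7 of 136 reads) and at intron 6 it was 1.67% (2 of 120 reads). NIC was above 0 at 12 of the 18 Tfrc introns, against 37.8% of all 3008 induced introns, a share that depends on the reads per intron. It was 0 at 6, the deepest of which was intron 1 with 170 reads, where a count of 0 allows up to 1.76%. Added over introns, intermediates made up 53 of 1769 reads, or 3.00%, against 4.35% over all introns of the induced pool. The 7 Tfrc introns tabulated for the uninduced pool had 0 intermediates among 59 reads, which would allow up to 5.08% if these reads were independent. They are added over introns that share reads. At single introns, with 5 to 10 such reads each, a count of 0 allows up to 30% to 60%. A difference between the pools was not detectable at this depth.

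The ferritin subunit genes differed from each other in splicing. Each has 3 introns, all between coding exons. Fth1 was mostly unspliced: intron 1 (chromosome 19, 9982984 to 9984180, 1197 nt) was spliced in 3 of 11 uninduced and 3 of 8 induced reads. Intron 2 (9984328 to 9984559, 232 nt) was spliced in 11 of 23 and 6 of 21, a coSE of 0.478 (interval 0.292 to 0.670) and 0.286 (interval 0.138 to 0.500). Intron 3 (95 nt) was spliced in 9 of 29 and 4 of 18, a coSE of 0.310 (interval 0.173 to 0.492) and 0.222 (interval 0.0900 to 0.452).

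All 5 of the Fth1 values with at least 10 reads were under 0.5, where 7.26% of all uninduced and 6.6% of all induced introns lie. Intron 2 stood above 7.15% of all uninduced and 2.81% of all induced introns, and intron 3 above 3.88% and 2.13%. Neither differed between the pools by Fisher's exact test (p 0.228 and 0.739, adjusted p 1 for both). With 18 to 29 reads in each pool, the intervals of coSE are wide.

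Ftl1 was mostly spliced. Its intron 1 had 99 of 109 uninduced reads spliced, for a coSE of 0.908 (interval 0.839 to 0.949), and 60 of 75 induced ones, for a coSE of 0.800 (interval 0.696 to 0.875). Intron 2 (chromosome 7, 45458661 to 45459083, 423 nt) had 83 of 96 and 48 of 58, coSE 0.865 and 0.828. Intron 3 (45458284 to 45458534, 251 nt) had 53 of 57 and 28 of 32, coSE 0.930 and 0.875. All 3 values were lower in the induced pool and none passed the threshold; the smallest p was that of intron 1 (difference -0.108, p 0.0480, adjusted p 0.616).

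The intervals of Fth1 and Ftl1 introns did not overlap in any pair with at least 10 reads, which held for 9 of 9 uninduced and 6 of 6 induced pairs. The highest upper bound for Fth1 was 0.670 and the lowest lower bound for Ftl1 was 0.782 in the uninduced pool; in the induced pool they were 0.500 and 0.696. The introns of a gene share reads, so these pairs are not independent, and the difference between the genes was not tested. How often the intervals of introns from other pairs of genes lie apart was not counted. The 5' score did not order the ferritin introns: Fth1 intron 2 carries the commonest base at all 9 positions and had a 5' score of 11, above 95.5% of introns, while Ftl1 introns 1 and 3 had 8.05 and 8.31. The 3' scores were 6.43 and 9.14 for Fth1 introns 2 and 3, and 9.07, 5.50 and 12.9 for Ftl1 introns 1 to 3.

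Both ferritin genes have copies in the annotation, 2 processed pseudogenes named for Fth1 and 3 loci named as pseudogenes of light-chain ferritin. How reads that match several places were counted is not given in the sources used here, so the spliced counts of both genes are uncertain. Of 8 annotated transcripts that span Fth1 intron 2, 7 include it, and of 6 that span intron 3, 5 include it. In each case the remaining transcript is of the retained-intron type.

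**Figure D3:**
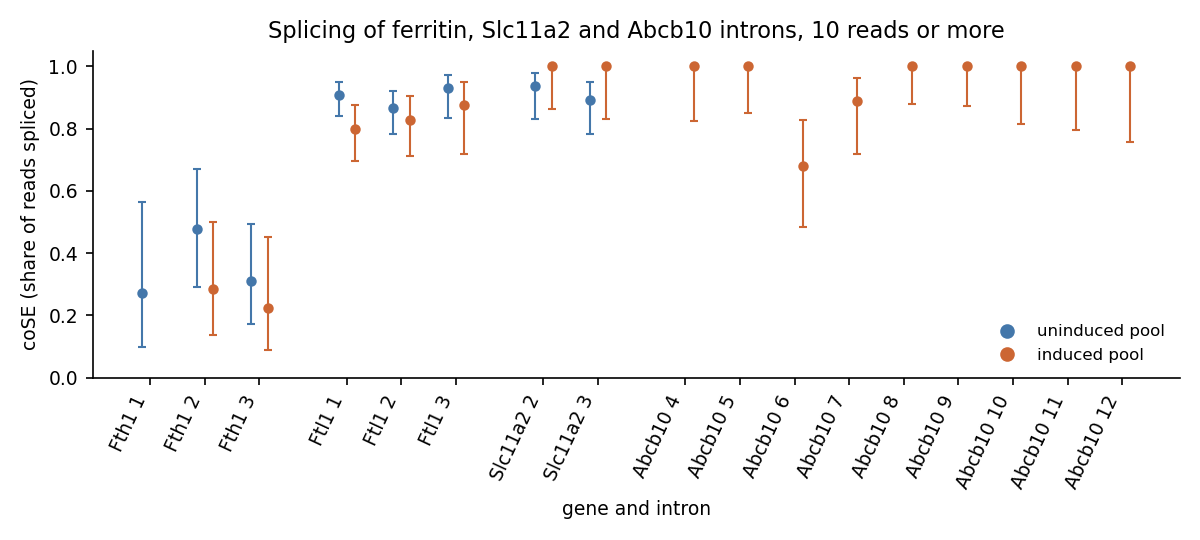
coSE of the Fth1, Ftl1, Slc11a2 and Abcb10 introns with at least 10 reads; points are pooled values and bars 95% Wilson intervals, blue for the uninduced and orange for the induced pool. Fth1 values lie between 0.222 and 0.478, and those of Ftl1 between 0.800 and 0.930.

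Intermediates were more frequent at Ftl1 introns in the induced than in the uninduced pool, though none of the differences passed. Intron 2 had 1 intermediate among 82 uninduced reads, a NIC of 1.22%, and 8 among 52 induced reads, a NIC of 15.4% (interval 8.01% to 27.5%; Fisher's exact test, p 0.00224, adjusted p 0.719). Intron 1 had 4 of 101 and 6 of 58, 3.96% and 10.3% (p 0.172), and intron 3 had 0 of 45 and 2 of 22, 0% (a count of 0 allows up to 6.67%) and 9.09% (p 0.104). Added over the 3 introns, 5 of 228 uninduced reads (2.19%) and 16 of 132 induced reads (12.1%) were intermediates. Over all introns the same shares were 2.71% and 4.35%. Of the 7 member introns tested for NIC, 0 passed and 1 had an unadjusted p under 0.05, against 0.12% and 1.73% of all 1672 introns tested. With the chi-square test 0 of 7 passed as well. Fth1 had 0 intermediates among 10 uninduced reads and 1 among 7 induced reads, too few to set beside Ftl1.

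**Figure D4:**
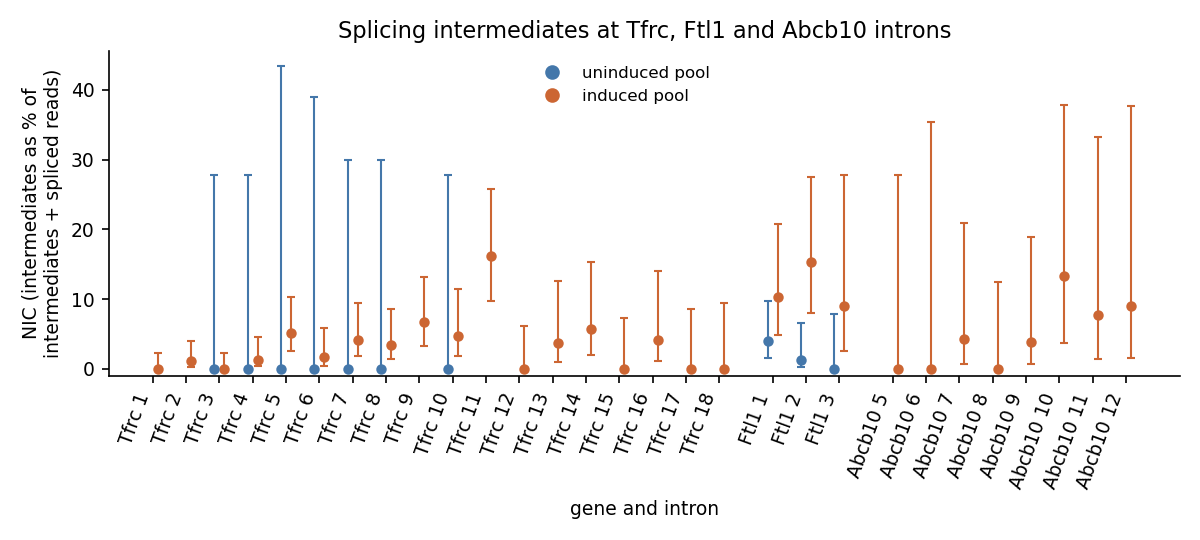
NIC, intermediates as a percentage of intermediates plus spliced reads, at the Tfrc, Ftl1 and Abcb10 introns of the second table; points are pooled values and bars 95% Wilson intervals, blue for the uninduced and orange for the induced pool. Tfrc intron 11 at 16.3% and Ftl1 intron 2 at 15.4% are the highest induced values of these genes.

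Slc11a2 was tabulated with a short transcript in which 2 introns have counts. Intron 2 (chromosome 15, 100410232 to 100412190, 1959 nt) had 45 of 48 uninduced and 24 of 24 induced reads spliced, and its coSE was 0.938 (interval 0.832 to 0.979) and 1 (lower bound 0.862). Intron 3 was spliced in 49 of 55 and 19 of 19 reads, a coSE of 0.891 (interval 0.782 to 0.949) and 1 (lower bound 0.832). Both were higher in the induced pool, by 0.0625 and 0.109, and neither difference passed (adjusted p 1). Intermediates numbered 1 among 85 uninduced reads and 0 among 20 induced reads, the latter allowing up to 15%. Intron 2 had one of the lower 3' scores among the members, 4.20, above 5.26% of introns.

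Abcb10 could be read in the induced pool alone, since no uninduced intron had more than 4 reads. Of its 12 introns, 9 had at least 10 induced reads, and 7 of those had no unspliced read, against 43.1% of all 6333 induced introns with that many reads. The exceptions were intron 6 (chromosome 8, 123963089 to 123964990, 1902 nt), spliced in 17 of 25 reads, a coSE of 0.680 (interval 0.484 to 0.828), and intron 7, spliced in 24 of 27, a coSE of 0.889 (interval 0.719 to 0.961). The interval of intron 6 lay wholly below those of 3 of the other 8 introns, namely 5, 8 and 9. Intron 8 (123960290 to 123961995, 1706 nt), with the most spliced reads, was spliced in 28 of 28. Intron 6 had the lowest 5' score of the 8 scored introns, 7.30, above 23.1% of all introns. Intermediates made up 6 of 132 reads, or 4.55%, and the highest NIC was 13.3% (2 of 15 reads, interval 3.74% to 37.9%) at intron 10.

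The remaining members were too shallow to test. Aco1 had at most 11 uninduced reads per intron and at most 8 induced. Its intron 7 (chromosome 4, 40176636 to 40177778) had 8 of 10 uninduced reads spliced, a coSE of 0.800 (interval 0.490 to 0.943), and intron 8 (40177951 to 40178972) in 7 of 11, a coSE of 0.636 (interval 0.354 to 0.848); in the induced pool they had 2 and 3 reads, all spliced. Ireb2 had at most 5 uninduced and 4 induced reads per intron. Over its 21 introns, 45 of 54 uninduced and 14 of 19 induced observations were spliced. Steap3 had at most 2 reads per intron. The tabulated Slc25a37 transcript contributed 1 intron, contained in 1 of the 4 annotated transcripts that span it, and it was listed with 0 spliced and 0 unspliced reads in both pools, so mitoferrin 1 was not measured here.

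**Figure D5:**
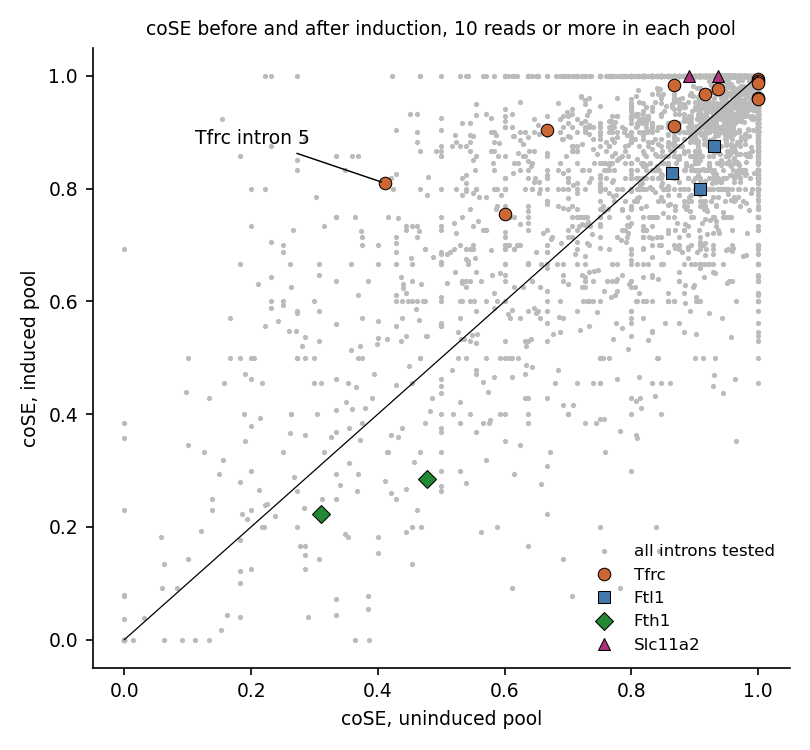
coSE in the uninduced (horizontal) and induced pool (vertical) for all 4403 introns with at least 10 reads in each (grey) and the 19 member introns (coloured by gene); the line marks equal values. Tfrc intron 5, at 0.412 and 0.810, is the member farthest above the line, and both Fth1 introns lie in the lower left.

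Set beside all introns, the members were split in direction. Among the 19 tested introns coSE was higher in the induced pool at 9, lower at 10 and equal at 0, with a median difference of -0.00521. Over all 4403 introns it was higher at 1879, lower at 1534 and equal at 990, with a median difference of 0. By gene, Tfrc, Fth1, Ftl1 and Slc11a2 had 12, 2, 3 and 2 tested introns. The median coSE of member introns with at least 10 reads was 0.879 over 22 uninduced introns and 0.978 over 34 induced introns, against 0.933 and 0.947 over all introns. These medians rest on different introns, because Abcb10 and introns 13 to 18 of Tfrc passed the minimum only in the induced pool. Fth1 intron 1 and Aco1 introns 7 and 8, with uninduced coSE of 0.273, 0.800 and 0.636, passed it only in the uninduced pool.

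Other genes of iron and heme handling were read from a list of 26, of which 17 were in the table and 4 (Ncoa4, Pcbp2, Exoc6 and Tmem14c) had introns that could be tested. Of 20 tested introns, 0 passed in either direction by Fisher's exact test and 2 had an unadjusted p under 0.05, against the shares of 1.61% and 7.97% over all introns; the median difference was 0.0824. The smallest p was at intron 3 of Ncoa4, the receptor that delivers ferritin for breakdown (chromosome 14, 32172444 to 32172606). Of its reads 32 of 55 uninduced and 33 of 39 induced were spliced, so that coSE was 0.582 and 0.846 (p 0.00694, adjusted p 0.225). Exoc6, a vesicle tethering protein needed for transferrin recycling, had 13 of 13 and 6 of 10 reads spliced at intron 10 (p 0.0237, adjusted p 0.448). For NIC, 0 of 7 tested introns of this list passed and 1 had an unadjusted p under 0.05, against 0.12% and 1.73% of all introns tested.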

How the data were processed

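Long-read nascent RNA of uninduced and induced MEL cells was analysed from 2 tables. The deposited counts of spliced reads, unspliced reads and intermediates are raw whole numbers per the file headers. NIC is a deposited fraction, GC content a deposited percent, and each splice site score a deposited score. The notes name minimap2 and the builds mm10 and dm3, per the submitters' processing notes, without roles; counting rules and the scoring program are not given in the sources used here. The HBB and PRO-seq samples were not analysed here.

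Transcripts were matched to GENCODE release M21 (GRCm38). With 2 added to starts and 1 taken from ends, 68768 of 68794 introns fell on annotated introns; introns were renumbered 5' to 3'. Introns with at least 10 reads in each pool were compared by Fisher's exact test (two-sided), with Benjamini-Hochberg adjustment over all such introns (SciPy 1.17.1, Python 3.11.15). The comparison was tried on simulated counts with decreases planted at well covered, mostly spliced introns. That simulation did not cover an increase at a shallow intron, as in the single member call. Intervals are 95% Wilson intervals and floors are 3 counts. PCR reads are not independent molecules, so both cover counting error only. Ratios of reads use exact conditional binomial intervals. Alternatives changed the minimum, the test, depth, introns and denominators. Members and gene lists were chosen with earlier results of these data known. All introns of the 9 genes were counted; those named are the best covered, the lowest and highest coSE, any past the threshold and the highest NIC.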

Additional observations from a re-analysis of the deposited data

How the results depend on the processing

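No paired analysis was possible because the deposited lines stand for groups and carry no replicate number. Fits without a replicate or with a replicate block were not run. The single member call, Tfrc intron 5, held under the chi-square test (adjusted p 0.0433). The count of member calls was 0 with a minimum of 5 reads (adjusted p 0.117), a minimum of 20 (the intron had 17 uninduced reads and was not tested), no minimum (adjusted p 0.422), the uninduced pool thinned to the induced total (adjusted p 0.584), and only introns present in every spanning transcript, which leaves this intron out. The difference at Tfrc intron 5 was 0.398 at each minimum that kept this intron and 0.310 after thinning. The all-intron count of 71 became 36 with no minimum and 31 with the last subset. Under thinning the difference at Tfrc intron 7 turned to -0.0882, that at intron 6 went from 0.154 to 0.300 (unadjusted Fisher exact p 0.0696) and that at intron 8 went from 0.117 to 0.0746; none was past the threshold either way. The mean over introns gave a coSE of 0.947 for Tfrc and 0.952 for Abcb10 in the induced pool, in place of 0.937 and 0.918 from summed reads. The Tfrc ratio of reads was 11.7 by the median over introns. The other 36 recomputed gene levels, medians, ratios and counts, NIC calls included, stayed inside their interval or within 1.5 times the count. Depth limits the comparison, since 62 of 84 member introns had under 10 uninduced reads, and the lack of replicate values is a limit that depth would not lift.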

Other observations

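Genes that build iron-sulfur clusters were read from a list of 28 names, which holds older symbols of the same genes; 25 were in the table. Of 22 tested introns in 3 genes (Mms19, Nubp2 and Narfl), 0 passed by Fisher's exact test and 1 had an unadjusted p under 0.05, intron 4 of Mms19, spliced in 12 of 13 uninduced and 11 of 19 induced reads (p 0.0497, adjusted p 0.623). Over all introns tested the shares were 1.61% and 7.97%. The median difference over the 22 introns was -0.00325. Of the 3 genes of this list with at least 20 reads at their best covered intron, 0 had a ratio of shares over 2 and 0 under 1/2, against 16.1% and 24.5% of all such genes.

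The second table kept fewer spliced reads than the first, and its share of Fth1 reads was lower than that of Ftl1 reads. For the introns it lists, Fth1 kept 10 of 20 uninduced and 6 of 10 induced spliced reads, or 50.0% and 60.0%. Ftl1 kept 223 of 235 and 116 of 136, or 94.9% and 85.3%. Over all introns the shares were 83.2% and 83.7% of summed reads, and the median intron kept 74.2% and 76.9%. Tfrc kept 59 of 86 uninduced and 1716 of 1874 induced reads, or 68.6% and 91.6%. The rule behind this is not given in the sources used here, and the difference was not tested.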
